A study of Homo sapiens with 18 samples.

Results

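The clustered protocadherins are cell-surface adhesion proteins encoded in 3 neighbouring gene arrays on human chromosome 5. They were taken as every gene of the deposited count table on chromosome 5 whose symbol is PCDHA, PCDHAC, PCDHB, PCDHGA, PCDHGB or PCDHGC followed by a number. This gave 56 of 25296 genes, with 16 in the alpha, 18 in the beta and 22 in the gamma cluster. On hg38 the alpha cluster spans chr5:140786136-141012348, the beta cluster chr5:141094578-141249366 and the gamma cluster chr5:141330571-141512982, all on the plus strand, and the whole locus covers 726.847 kb. By the gene type given in the count table, 15 alpha, 15 beta and 21 gamma members are protein coding. The other 5 (PCDHA14, PCDHB17P, PCDHB18P, PCDHB19P and PCDHGB8P) are pseudogenes. Exon positions were taken from GENCODE release 44.

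The study measured RNA of U2OS cells, a human osteosarcoma line, by RNA-seq after total RNA extraction. The cells carried the MigR1 retroviral vector, either empty (EV), with wild-type DNMT3A (WT) or with mutant DNMT3A (MUT), and each line was either untreated or exposed to 10 µM cytarabine (Ara-C, a cytidine analog that stalls DNA synthesis) for 24 h. DNMT3A is a de novo DNA methyltransferase. The mutation is R882H in the sample labels but R882C in the series text, and the line is referred to as MUT. Each of the 6 groups had 3 libraries, described as biological triplicates of plated cells, and the controls of every comparison therefore carry the vector too. Whether a line is a clone or a pool is not given in the sources used here, and p-values measure the spread between these cultures of 1 line per genotype.

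Each protocadherin protein is an adhesion receptor with cadherin repeats outside the cell. In the alpha and gamma clusters, each of many variable exons has its own promoter and is spliced to constant exons shared by the whole cluster, whereas each beta gene is a single large exon. In neurons, promoter choice, guided by CTCF, cohesin and DNA methylation, gives each cell its own set of isoforms, used to tell self from non-self. The C-type members (PCDHAC and PCDHGC) lie at the ends of their clusters and are controlled differently from the alternate members.

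The promoters carry a short shared element, known as the conserved sequence element, whose core is CGCT. RefSeq windows from 250 bases before to 50 bases after the start (GRCh38.p14) were matched to 45 of the 56 members. The stretches around the core are printed for members whose levels are described further on, because they show how alike the promoters are within a cluster and how they differ between clusters. Capitals mark the core. All lie on the plus strand.
PCDHA4 (chr5:140806973-140807008): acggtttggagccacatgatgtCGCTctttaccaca
PCDHA5 (chr5:140821536-140821571): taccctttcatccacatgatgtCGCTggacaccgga
PCDHA6 (chr5:140827891-140827926): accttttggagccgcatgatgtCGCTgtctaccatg
PCDHAC1 (chr5:140926214-140926249): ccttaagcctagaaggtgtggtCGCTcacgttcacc
PCDHB2 (chr5:141094538-141094573): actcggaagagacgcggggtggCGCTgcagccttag
PCDHB5 (chr5:141135173-141135205): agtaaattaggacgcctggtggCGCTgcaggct
PCDHB7 (chr5:141172560-141172595): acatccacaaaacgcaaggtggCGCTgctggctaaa
PCDHB14 (chr5:141223257-141223292): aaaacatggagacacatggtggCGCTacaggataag
PCDHB15 (chr5:141245308-141245343): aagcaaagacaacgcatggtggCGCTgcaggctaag
PCDHGA2 (chr5:141338697-141338732): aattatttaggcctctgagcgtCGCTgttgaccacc
PCDHGB4 (chr5:141387611-141387646): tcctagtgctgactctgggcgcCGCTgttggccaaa
PCDHGC3 (chr5:141475874-141475909): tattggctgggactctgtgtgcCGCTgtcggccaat

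CGCT, searched on both strands, occurred in 44 of the 45 member windows (97.8%) and in 70.0% of all 35116 RefSeq promoter windows. Read on the plus strand of the window and starting between 95 and 11 bases before the start, it occurred in 42 of 45 members (93.3%) against 25.2% of all windows. PCDHGB1, PCDHGB4, PCDHGB5 and PCDHGB6 have a second window, and only the more upstream one was counted. None of the second windows held CGCT on that strand in that interval. The 35116 windows include them. The 9-base word holding this core that was shared by most windows differed between clusters. It was GATGTCGCT in alpha, in 9 of 13 windows, GGTGGCGCT in beta, in 13 of 13, and GCGCCGCTG in gamma, in 10 of 19, and none of the 3 words was in a window of another cluster. Over all windows, searched on both strands, they occurred in 0.105%, 0.501% and 1.28%. The words and the interval were chosen on the member sequences, so these counts are a description. CpG dinucleotides, the sites DNMT3A methylates, had a median of 7 per window in alpha, 8 in beta and 7 in gamma against 14 over all windows. Median GC content was lower too, at 37.3%, 39.7% and 41.0% against 58.7%. Relative to the number expected from the base content, CpG was near that of all windows, with median ratios of 0.593, 0.640 and 0.517 against 0.579. With the second windows included, the gamma medians were 8 CpG, 44.3% GC and a ratio of 0.549. The C-type windows of PCDHAC1, PCDHAC2 and PCDHGC3 held 27, 15 and 18 CpG.

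Library totals ran from 15.4 to 21.9 M estimated counts, of which the 56 members took 0.00864% to 0.0206%. DNMT3A itself was at 26.2 to 27.5 CPM (counts per M counts of the library) in untreated EV, 129 to 139 in untreated WT and 254 to 615 in untreated MUT libraries. After cytarabine it was at 45.5 to 49.6 CPM in EV, 166 to 182 in WT and 515 to 532 in MUT. In EV and WT every treated library lay above every untreated one. The library at 254 is untreated MUT replicate 3, which also had the lowest summed alpha and gamma level of all 18 libraries. CPM values throughout are scaled by TMM factors. Of 9 mesenchymal or osteoblast markers, 8 were above 1 CPM and TWIST1 was not among the genes of the table. Of 9 neuronal markers 7 were above 1 CPM, with STMN2 and GAP43 below it, and their summed level was 156 to 202 CPM. Of 5 haematopoietic markers only CD34 was above 1 CPM, and all 4 epithelial markers were, with a sum of 468 to 983 CPM.

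The alpha and gamma values of single members are less certain than the beta values. Of the annotated exonic bases of a protein-coding alpha member, 21.4% to 56.6% are also exonic in another member, and in gamma 27.5% to 64.4%, whereas beta members share none. The estimated counts were whole numbers, within 0.001, in 93.8% of beta values but in 13.9% of alpha and 16.7% of gamma values. Whether reads on shared exons account for this was not tested. PCDHB16, which shares no exonic bases with another member, had whole values in 10 of 18 libraries. In all, beta members held 47.2% of the counts of the locus, gamma 35.8% and alpha 17.0%. After the filter on low counts 46 members were tested (12 alpha, 16 beta, 18 gamma). The other 10 (PCDHA2, PCDHA8, PCDHA9, PCDHA14, PCDHB4, PCDHB19P, PCDHGA3, PCDHGA7, PCDHGA12 and PCDHGB8P) averaged 1.11 to 5.89 counts per library and were not tested.

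Per kilobase of annotated exon, the level averaged over all 18 libraries was highest for PCDHGC3, a C-type gamma member that is expressed outside neurons too, at 5.84 CPM per kb. PCDHB5 and PCDHB2 followed at 3.30 and 3.23, and PCDHB16 at 1.57. Of the 13 members with the highest levels per kb, 11 are beta genes, and the other 2 are PCDHGC3 and PCDHGB4. PCDHB5 and PCDHB2 change places between groups: in untreated MUT cells PCDHB5 stood below PCDHB2, and in untreated WT cells above it. The tested alpha members had a median of 0.154 CPM per kb in untreated EV cells, against 0.821 for beta and 0.123 for gamma. The length used joins all annotated exons of a gene, shared ones included. It is 5441 to 15664 bases in protein-coding alpha members, 4772 to 8657 in gamma and 2750 to 5061 in beta. PCDHA10 and PCDHAC1, both at 2.95 CPM, thus came out at 0.189 and 0.420 per kb. Levels per kb are therefore not like for like between clusters. The plot of levels per exonic length shows all 46 tested members in the 6 groups.

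**Figure D1:**
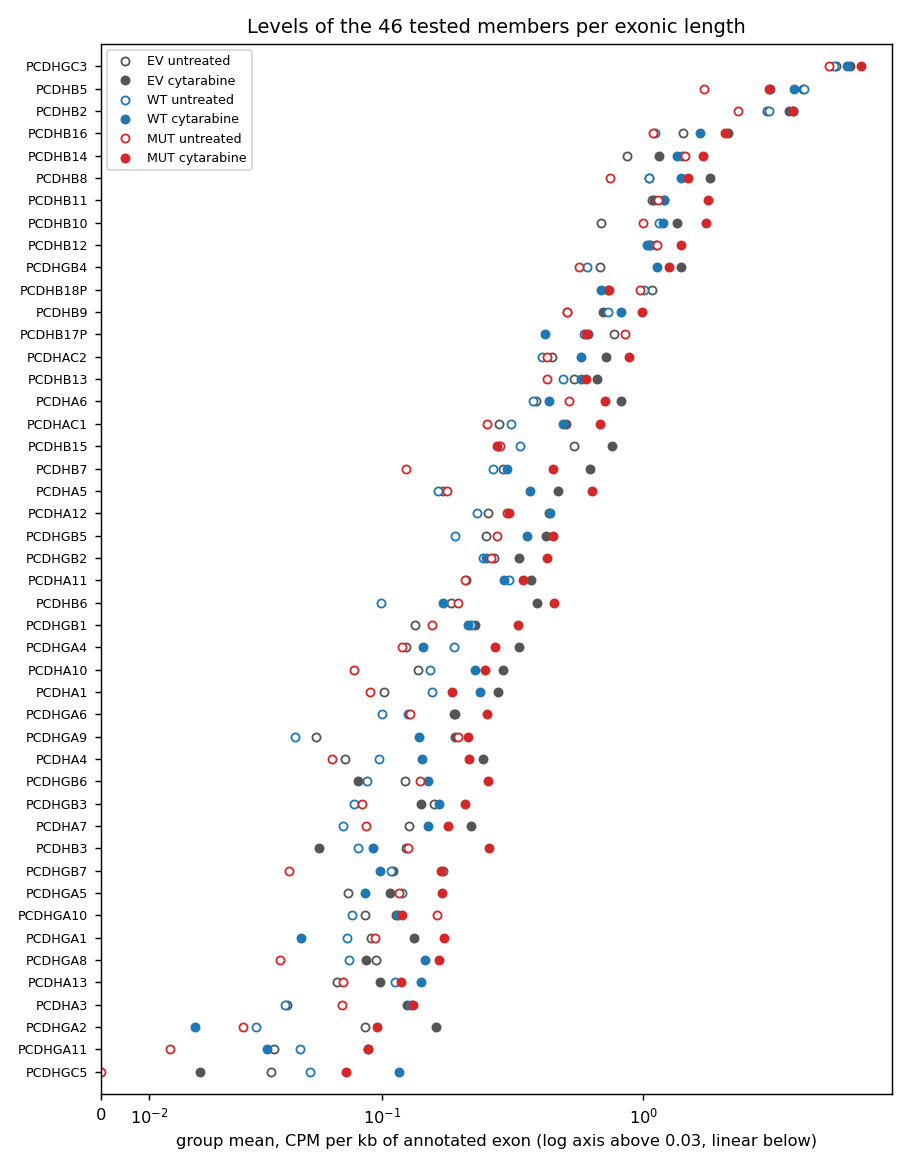
Group mean level of each tested member in CPM per kb of annotated exon (x axis, logarithmic above 0.03 and linear below), with 1 row per member and 1 point per group; open points are untreated and filled points cytarabine-treated groups. PCDHGC3, at 5.84 over all libraries, heads the order, and the beta genes fill most of the next rows.

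Cytarabine was followed by higher summed levels of the alpha cluster in all 3 lines. The untreated EV libraries summed to 16.9, 16.5 and 17.6 CPM and the treated ones to 29.1, 39.3 and 34.4 CPM. In WT the sums were 16.6, 17.9 and 18.6 CPM untreated and 28.4, 21.8 and 29.5 CPM treated. In MUT they were 17.4, 18.7 and 12.5 CPM untreated and 37.0, 33.2 and 33.3 CPM treated. In each line every treated library lay above every untreated one. The geometric mean was 2.01-fold higher in EV, 1.49-fold in WT and 2.16-fold in MUT. No test was run on the sums. RNA came from whole cultures, so fewer cells of a type and less RNA per cell cannot be told apart.

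The beta cluster differed less. It averaged 60.6 ± 1.64 CPM in untreated and 78.0 ± 3.82 in treated EV cells (SD, n = 3), with no overlap of libraries and a ratio of 1.29. In MUT cells it averaged 52.9 ± 3.66 and 80.8 ± 6.06 CPM, a ratio of 1.53, again without overlap. In WT cells the means of 66.5 ± 3.46 and 70.7 ± 4.0 CPM came from libraries that overlapped. The 3 lines differed before treatment, in the order MUT, EV, WT from low to high, with no library of a line inside the range of another (MUT 49.9 to 57.0, EV 59.6 to 62.5, WT 63.0 to 69.9 CPM). Without PCDHB2, untreated MUT (40.3 to 48.0 CPM) overlapped untreated EV (47.5 to 49.7 CPM), with a log2 ratio of -0.16.

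The gamma sum rests largely on PCDHGC3, which made up 56.0% to 67.2% of it in the group means. It averaged 46.6 ± 1.27 and 59.0 ± 3.91 CPM in EV, 43.6 ± 3.19 and 53.3 ± 4.03 in WT, and 42.4 ± 6.0 and 66.0 ± 3.85 in MUT, untreated and treated (SD, n = 3). Treated libraries lay above untreated ones in each line, but under the authors' factors the WT libraries overlapped (untreated up to 47.9 and treated down to 47.3 CPM), with a log2 ratio of 0.23. Without PCDHGC3 the log2 ratio went from 0.34 to 0.57 in EV, from 0.29 to 0.52 in WT and from 0.64 to 1.00 in MUT. PCDHGC3 thus took a smaller share of the gamma sum after treatment, for example 65.7% ± 1.88 before and 56.0% ± 1.30 after in MUT. Some marker sums moved with treatment in the same libraries. The mesenchymal sum was 3674 to 4164 CPM in untreated and 2688 to 3171 CPM in treated libraries, and the haematopoietic sum 1.64 to 3.14 and 5.85 to 9.80 CPM. Over the lines together the others overlapped, at 162 to 193 and 156 to 202 CPM (neuronal) and 497 to 983 and 468 to 790 CPM (epithelial). Within lines, the neuronal sum was apart in WT (170 to 176 and 188 to 197 CPM). The epithelial sum was apart in EV (790 to 819 and 643 to 789 CPM). Their part in the protocadherin levels was not tested.

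**Figure D2:**
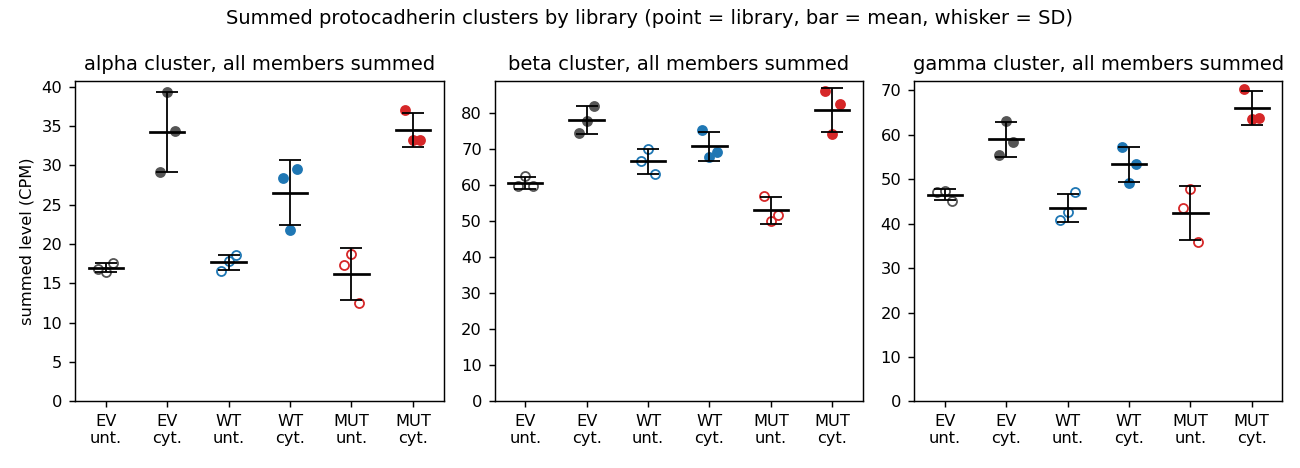
Summed level in CPM (y axis, from 0) of all members of the alpha, beta and gamma clusters in each of the 6 groups; points are libraries, bars the mean and whiskers the SD of 3. Treated libraries lie above untreated ones everywhere except for the beta cluster in WT, where 66.5 and 70.7 CPM are the means of overlapping groups.

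Gene by gene, 19 of the 46 tested members rose with cytarabine in EV (41.3%), 8 in WT (17.4%) and 26 in MUT (56.5%), and none fell, at an adjusted p under 0.05 in edgeR's quasi-likelihood test with Benjamini-Hochberg adjustment over 18226 genes. Over all tested genes 26.1% rose in EV, 26.3% in WT and 30.4% in MUT, while 22.9%, 22.7% and 25.9% fell. Among the 11311 genes in the members' range of mean abundance, the shares that rose were 31% in EV, 30.2% in WT and 35.2% in MUT. Set against these shares, more members than background rose in EV and MUT and fewer in WT. The median log2 fold change of the tested members was 0.56 (EV), 0.27 (WT) and 0.90 (MUT). The corresponding medians were 0.26, 0.18 and 0.26 for genes of their abundance range and 0.05, 0.03 and 0.05 for all genes. The number of members called in MUT was 18 without untreated MUT replicate 3, and in EV it was 11 without treated EV replicate 3. Under the authors' own scaling factors 7 members were called higher and 1 lower in WT.

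By cluster, 9 of 12 alpha, 7 of 16 beta and 3 of 18 gamma members rose in EV. In WT these counts were 5, 2 and 1. In MUT they were 7, 10 and 9. So the alpha cluster had the largest share of risen members in EV and WT. In MUT the shares were 58.3% in alpha, 62.5% in beta and 50% in gamma. Protein-coding alpha and gamma members share exonic bases, so their calls are not independent of each other, whereas beta members share none. These shares are therefore not like for like between clusters. Among kinds of member, all 4 tested C-type members rose in MUT against 1 in EV and 1 in WT, while neither of the 2 tested pseudogenes, PCDHB17P and PCDHB18P, passed in any line. The 5 members that rose in all 3 lines were PCDHA5, PCDHAC1, PCDHB2, PCDHB16 and PCDHGB4, which is 10.9% of the tested members against 18.9% of all tested genes. Another 7 passed in EV and MUT, 13 in MUT alone, 5 in EV alone, none in WT alone, and 13 in no line. Passing in 1 line and not in another does not show that the lines differ, which is tested further on.

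**Figure D3:**
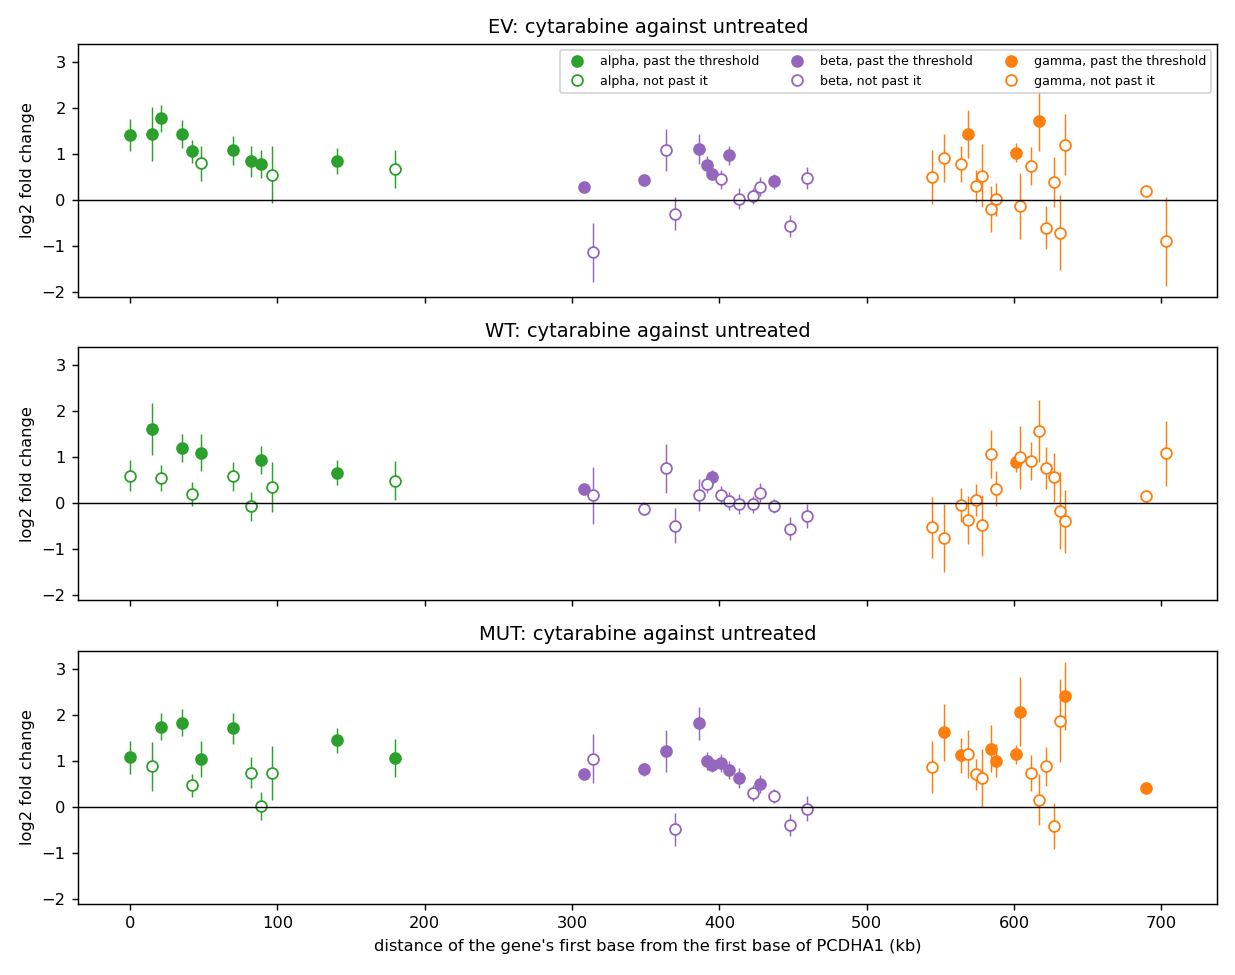
Log2 fold change after cytarabine (y axis) of each tested member in the 3 lines, by distance of its first base from that of PCDHA1 (x axis, kb); filled points passed the threshold, open points did not, and whiskers are standard errors. Filled points lie above 0 in every panel, 19 in EV, 8 in WT and 25 of the 26 in MUT, where PCDHGC5 is not drawn because its untreated group is at 0.

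Among the alternate alpha members, PCDHA5 gave a response in every line. Its levels were 1.28, 1.26 and 1.12 CPM in untreated and 2.3, 4.80 and 2.93 in treated EV, 1.24, 1.19 and 1.05 and then 3.30, 1.62 and 2.95 in WT, and 1.33, 1.26 and 1.20 and then 5.69, 4.13 and 3.72 in MUT. The untreated groups were nearly level with each other, and every treated library stood above its untreated group. The log2 fold change was 1.43 ± 0.30 (SE) in EV, 1.20 ± 0.30 in WT and 1.82 ± 0.29 in MUT (edgeR adjusted p = 0.000566, 0.00261 and 2.84e-05). PCDHA5 and PCDHGC5 were the 2 members that still passed in MUT when the test asked for more than a log2 change of 1.

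PCDHA4, its neighbour, rose in EV and MUT. The EV libraries were at 0.886, 0.654 and 1.36 CPM untreated and 3.11, 3.58 and 3.14 treated, and the MUT libraries at 0.904, 0.721 and 0.971 and then 3.09, 2.69 and 2.88. In WT the values of 1.37, 1.82 and 0.733 and then 1.70, 2.13 and 1.89 overlapped. The log2 fold change was 1.77 ± 0.30 in EV and 1.74 ± 0.30 in MUT, and 0.55 in WT, which did not pass (edgeR adjusted p = 5.88e-05 and 6.07e-05 for the first 2).

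PCDHA10 was at 3.00, 1.72 and 1.69 CPM in untreated and 4.06, 5.19 and 4.34 in treated EV, and at 0.921, 1.94 and 0.800 and then 4.62, 2.6 and 4.48 in MUT. It rose by a log2 fold change of 1.08 ± 0.32 and 1.70 ± 0.34 (edgeR adjusted p = 0.00876 and 0.000296). PCDHA6 was at 2.10, 2.79 and 2.28 CPM in untreated and 3.52, 6.60 and 4.97 in treated EV. It rose by 1.06 ± 0.25 there (edgeR adjusted p = 0.00152) and passed in neither other line. These calls of PCDHA4, PCDHA5, PCDHA6 and PCDHA10 held whichever single library was left out.

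PCDHA3 rose in EV by 1.43 ± 0.58 and in WT by 1.61 ± 0.57 (edgeR adjusted p = 0.0476 and 0.0252), at 0.117, 0.383 and 0.465 and then 0.707, 0.891 and 1.19 CPM in EV, and 0.347, 0.281 and 0.321 and then 0.513, 0.731 and 1.64 in WT. These are low values, and the EV call was lost in 11 of 18 fits that left out 1 library (adjusted p up to 0.194). It was also lost under the authors' factors and with no filter on low counts. The WT call was lost without any of the untreated WT libraries or treated WT replicate 3 (adjusted p up to 0.209).

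Of the C-type alpha members, PCDHAC1 was at 1.82, 2.10 and 1.97 CPM in untreated and 2.85, 4.47 and 3.29 in treated EV, and at 1.71, 1.89 and 1.70 and then 5.80, 4.60 and 4.0 in MUT. In WT the values of 2.64, 1.38 and 2.52 and then 3.34, 2.31 and 4.69 overlapped. The log2 fold change was 0.84 ± 0.28, 1.44 ± 0.27 and 0.66 ± 0.27 in EV, MUT and WT (edgeR adjusted p = 0.0165, 0.000174 and 0.0495). The WT call was lost in 12 of 18 fits with 1 library left out (adjusted p up to 0.299). It was also lost under the authors' factors, with no filter on low counts, and with replicate number added to the fit. The EV call was lost without untreated EV replicate 1 or treated EV replicate 2 (up to 0.0856). PCDHAC2, the most abundant alpha member by CPM, was at 3.16, 4.06 and 0.651 CPM in untreated and 4.93, 4.98 and 6.44 in treated MUT. It rose by 1.06 ± 0.41 in MUT (edgeR adjusted p = 0.0334), a call lost without untreated replicate 3 or treated replicate 3 (up to 0.133). The call was also lost when only the groups compared were fitted.

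Of the 4 most abundant beta members, PCDHB2 and PCDHB16 rose in all 3 lines, PCDHB5 in EV and MUT, and PCDHB14 in EV alone. PCDHB2 stood at 11.7, 12.8 and 12.1 CPM in untreated and 14.1, 15 and 15.4 in treated EV, at 13.1, 12.3 and 11.8 and then 15.4, 16.6 and 14.2 in WT, and at 8.98, 9.62 and 9.65 and then 15.4, 15 and 15.5 in MUT. The treated groups reached about the same level from an untreated level that was lowest in MUT. The log2 fold change was 0.28 ± 0.09, 0.31 ± 0.09 and 0.70 ± 0.09 (edgeR adjusted p = 0.0132, 0.00647 and 2.31e-06). The EV call was lost under the authors' scaling factors and without untreated EV replicate 1 or treated EV replicate 3 (adjusted p up to 0.0569 over these left-out libraries).

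PCDHB16 was at 6.13, 5.08 and 5.10 CPM in untreated and 7.34, 7.62 and 9.28 in treated EV, 4.55, 3.91 and 4.34 and then 6.13, 5.99 and 6.81 in WT, and 3.66, 3.90 and 4.97 and then 8.44, 6.82 and 8.32 in MUT. No treated group overlapped its untreated group. It rose by 0.57 ± 0.15, 0.56 ± 0.15 and 0.92 ± 0.15 on the log2 scale (edgeR adjusted p = 0.00366, 0.00479 and 4.36e-05). PCDHB14 was at 3.91, 3.86 and 3.75 CPM in untreated and 4.55, 5.99 and 4.75 in treated EV. It rose there by 0.40 ± 0.16 (edgeR adjusted p = 0.0437), a call lost in 11 of 18 fits with 1 library left out (up to 0.199). It was also lost with DESeq2, the authors' factors, no filter on low counts, or a fit to just these libraries (up to 0.101). In WT and MUT its changes of -0.05 and 0.23 did not pass.

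PCDHB7 is a low beta member, at 1.17, 1.23 and 0.861 CPM in untreated and 2.20, 2.75 and 2.10 in treated EV, and at 0.853, 0.252 and 0.286 and then 1.71, 1.44 and 1.92 in MUT. It rose by 1.10 ± 0.33 in EV and 1.81 ± 0.37 in MUT (edgeR adjusted p = 0.00929 and 0.000323). In WT, at 1.03, 0.952 and 0.990 and then 1.44, 0.865 and 1.06 CPM, the groups overlapped. PCDHB10 rose by 0.97 ± 0.21 in EV and 0.80 ± 0.20 in MUT (edgeR adjusted p = 0.000867 and 0.00217). Its libraries were at 2.63, 1.87 and 2.34 and then 4.99, 4.18 and 4.19 CPM in EV, and at 3.71, 2.70 and 3.43 and then 6.55, 5.03 and 5.62 in MUT.

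In the gamma cluster PCDHGB4, the second most abundant gamma member by CPM, rose in every line. Its levels were 4.04, 5.07 and 5.06 and then 8.30, 10.8 and 9.73 CPM in EV, 3.47, 4.08 and 5.05 and then 7.22, 6.89 and 9.19 in WT, and 5.37, 2.58 and 3.79 and then 10.2, 7.92 and 8.0 in MUT. Treated and untreated libraries were apart in each line. The log2 fold change was 1.02 ± 0.21, 0.89 ± 0.21 and 1.14 ± 0.21 (edgeR adjusted p = 0.000449, 0.00161 and 0.000139), and no single library decided a call.

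PCDHGC3 moved little. It was at 30.3, 28.3 and 30.2 and then 34.3, 34.4 and 32.3 CPM in EV, at 28.1, 28.5 and 31.2 and then 36.2, 30.9 and 31.1 in WT, and at 28.2, 32.5 and 23.2 and then 38.5, 35.7 and 36.5 in MUT. It rose in MUT by 0.40 ± 0.10 (edgeR adjusted p = 0.00157), while 0.18 in EV and 0.16 in WT did not pass. PCDHGB5 and PCDHGB2, next in abundance, passed in no line: PCDHGB5 ran from 0.682 to 2.16 CPM untreated and from 1.23 to 2.93 treated over the 3 lines, and PCDHGB2 from 0.630 to 1.83 and from 1.09 to 2.43.

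The other gamma members given in full for cytarabine, PCDHGA9, PCDHGA11 and PCDHGC5, had low levels. PCDHGA9 was at 0.119, 0.339 and 0.363 and then 0.752, 1.08 and 0.967 CPM in EV and rose by 1.71 ± 0.66 (edgeR adjusted p = 0.0372). That call was lost without any of the 3 untreated EV libraries or without treated EV replicate 2 or 3 (adjusted p up to 0.145). PCDHGA11 was at 0.251, 0 and 0 CPM in untreated and 0.478, 0.542 and 0.520 in treated MUT, and its fitted log2 fold change of 2.40 ± 0.74 (edgeR adjusted p = 0.00994) ranged from 1.83 to 6.32 over the alternatives. PCDHGC5, a C-type member, was at 0 in all 3 untreated MUT libraries and at 0.590, 0.269 and 0.236 CPM in treated ones. Against a floor of 3 counts per library the treated mean was at least 2.15-fold higher. Its fitted fold change is no bound and is not given, but it counts among the 26 calls (edgeR adjusted p = 0.00302). With it at its bound, the gamma median in MUT was 1.05 against 1.06.

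The lines also differed from each other in single members, at rates near or below the background. Before treatment, 3 members were higher and none lower in WT than in EV, where 4.3% of all tested genes were higher and 7.36% lower. MUT had 1 member higher and 5 lower than EV (background 9.88% and 10%), and 1 higher and 3 lower than WT (11.7% and 9.54%). After cytarabine, WT had 1 member higher and 4 lower than EV (7.41% and 9.12%). MUT had 4 higher and 2 lower than EV (6.85% and 7.13%), and 6 higher and none lower than WT (10.4% and 9.48%). By direction, the shares higher in untreated WT against EV and in treated MUT against EV and WT were above the background. The other shares were near or below it. The count of 6 against WT became 0 without treated WT replicate 2 or 3 and 1 without treated MUT replicate 1 or 2, and the count of 3 in untreated WT against EV became 0 without untreated WT replicate 2. These comparisons share control libraries within each treatment. By cluster, 5 of 16 beta members (31.25%) were called for MUT against EV, both before and after treatment. All tested genes were called in 19.9% and 14%. In alpha 0 of 12 and in gamma 1 of 18 members were called in each of these comparisons. The cluster shares were not tested and are not matched for abundance. The median log2 difference of all 46 members before treatment was -0.11 (WT against EV), -0.06 (MUT against EV) and -0.08 (MUT against WT).

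PCDHB5, the beta member second in level per kb over all libraries, differed most firmly. Its libraries were at 10.7, 9.93 and 10.5 CPM in untreated EV, at 14.2, 15.1 and 12.8 in untreated WT and at 6.77, 4.84 and 5.94 in untreated MUT. The 3 groups did not overlap, with MUT lowest and WT highest. MUT was lower by -0.82 ± 0.15 on the log2 scale than EV and by -1.25 ± 0.14 than WT (edgeR adjusted p = 0.000652 and 5.98e-06), and these calls held without any single library. WT was higher than EV by 0.43 ± 0.14 (edgeR adjusted p = 0.0470), a call lost in 11 of 18 fits with 1 library left out (up to 0.182). It was also lost under the authors' factors and with no filter on low counts.

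PCDHB2 was also lower in untreated MUT, by -0.37 ± 0.09 against EV and -0.40 ± 0.09 against WT (edgeR adjusted p = 0.00778 and 0.00427), with the libraries given above not overlapping. Both calls were lost when only the groups compared were fitted (0.0949 and 0.0731). PCDHB14 went the other way: untreated EV was at 3.91, 3.86 and 3.75 CPM, WT at 5.93, 7.41 and 5.22 and MUT at 5.42, 6.85 and 6.85. Both DNMT3A lines thus stood above EV, by 0.69 ± 0.16 and 0.73 ± 0.16 (edgeR adjusted p = 0.00628 and 0.00301). The WT call was lost without untreated WT replicate 2 (0.0560). PCDHB10 was higher in untreated WT, at 4.02, 3.76 and 3.57 CPM, than in EV by 0.73 ± 0.21 (edgeR adjusted p = 0.0308), lost without untreated EV replicate 2 or 3 or any untreated WT library (up to 0.145).

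PCDHB15, the last gene of the beta array, was singled out after its values were seen. It was at 2.34, 1.75 and 2.40 CPM in untreated and 2.93, 3.43 and 2.69 in treated EV, at 1.18, 1.75 and 1.10 and then 0.928, 1.19 and 1.21 in WT, and at 1.40, 0.866 and 1.09 and then 1.10, 1.05 and 1.13 in MUT. After cytarabine both DNMT3A lines lay below every EV library, by -1.44 ± 0.25 in WT and -1.45 ± 0.25 in MUT (edgeR adjusted p = 0.000579 and 0.000698), and no left-out library ended either call. Before treatment MUT was lower by -0.93 ± 0.26 (edgeR adjusted p = 0.0172), while -0.69 in WT did not pass. The MUT call was lost without untreated EV replicate 1 or 3 or untreated MUT replicate 2 (up to 0.0670). It was also lost when only the groups compared were fitted.

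**Figure D4:**
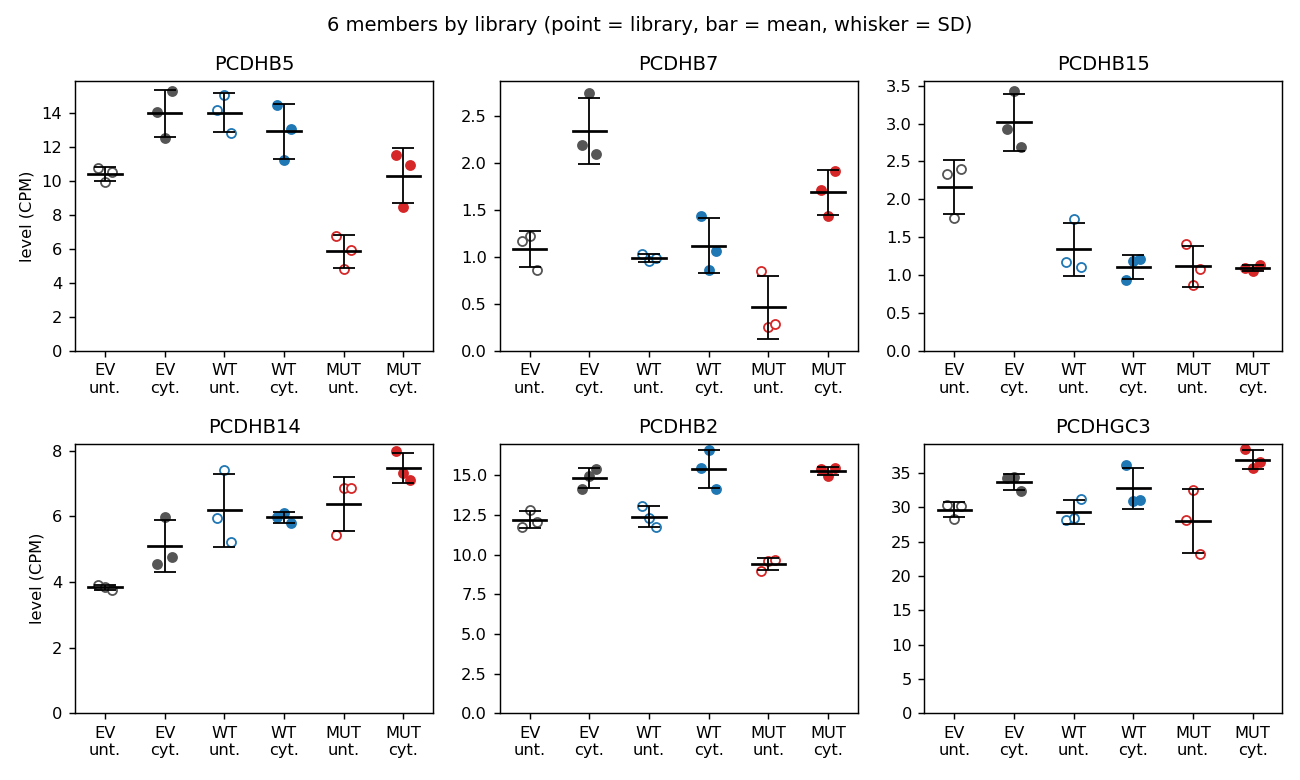
Level in CPM (y axis, from 0) of 5 beta genes and PCDHGC3 in the 6 groups; points are libraries, bars the mean and whiskers the SD of 3. PCDHB5 is lowest in untreated MUT (4.84 to 6.77 CPM), PCDHB15 is lower in both DNMT3A lines after cytarabine, and PCDHB14 is higher in both before it.

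PCDHB7 was lower in untreated MUT than in EV by -1.18 ± 0.39 (edgeR adjusted p = 0.0377). The call was lost without untreated EV replicate 1 or 2 or untreated MUT replicate 2 or 3 (up to 0.131). It was also lost with no filter on low counts and when only the groups compared were fitted. PCDHGC5 was lower in untreated MUT, at 0 in every library, than in WT at 0.282, 0.203 and 0.314 CPM, which is at least 1.57-fold against the floor (edgeR adjusted p = 0.0190). Its calls against EV, where the libraries overlapped at 0, and in treated WT against EV were lost in 14 and 13 of 17 fits that left out 1 library. Both were also lost with replicate number added to the fit, and the latter with no filter on low counts. PCDHGA9 was higher in untreated MUT, at 0.396, 1.90 and 0.579 CPM, than in WT at 0.194, 0.273 and 0.216, by 2.01 ± 0.67 (edgeR adjusted p = 0.0377). Without untreated MUT replicate 2 or any untreated WT library that call was lost (up to 0.256).

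After cytarabine, PCDHGA2 was at 0.859, 1.67 and 0.723 CPM in EV, 0.139, 0.109 and 0.145 in WT and 0.420, 1.02 and 0.481 in MUT. The WT libraries lay below all others. The difference was -2.98 ± 0.62 in WT against EV and 2.22 ± 0.64 in MUT against WT (edgeR adjusted p = 0.00263 and 0.0192). The latter was lost without any treated WT library or treated MUT replicate 2 (up to 0.102). PCDHB3 was at 0.114, 0.250 and 0.214 CPM in EV and 0.879, 0.431 and 1.26 in MUT, higher by 2.18 ± 0.58 (edgeR adjusted p = 0.0169), a call lost without treated EV replicate 1 or 3 or treated MUT replicate 3 (up to 0.10). PCDHGB6 was at 0.577, 0.383 and 0.684 CPM in EV and 1.83, 2.04 and 1.29 in MUT, higher by 1.62 ± 0.43 (edgeR adjusted p = 0.0168), lost without treated replicate 2 of either line (up to 0.0657). PCDHGA1 was at 0.278, 0.310 and 0.339 CPM in WT and 1.02, 0.895 and 1.33 in MUT, higher by 1.78 ± 0.60 (edgeR adjusted p = 0.0438). That call was lost in 12 of 18 fits with 1 library left out (up to 0.135). It was also lost with no filter on low counts and with replicate number added to the fit. Among abundant members PCDHA6 was lower in treated WT than in EV by -0.90 ± 0.24 and PCDHB14 higher in treated MUT than in EV by 0.56 ± 0.15 (edgeR adjusted p = 0.0149 and 0.0166). The first was lost without treated EV replicate 2 or treated WT replicate 1 (up to 0.0842), the second without treated EV replicate 1 or 3 or treated MUT replicate 1 (up to 0.0768).

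**Figure D5:**
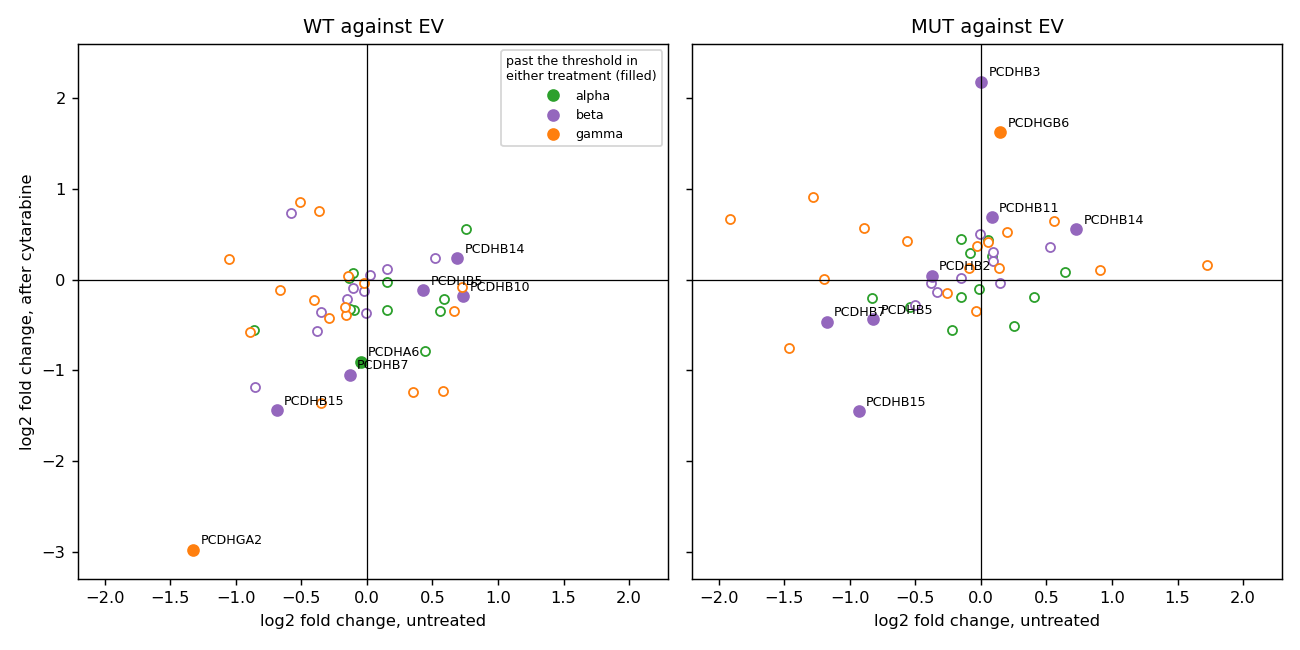
Log2 fold change against EV of the tested members in untreated (x axis) and treated cells (y axis), for WT (left) and MUT (right); filled, named points passed the threshold in either treatment. PCDHGC5 is not drawn because a group is at 0, and both axes of a panel use different libraries of the same lines; PCDHB15 lies at -0.93 and -1.45 in MUT.

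Whether the cytarabine response itself differed between lines was tested as an interaction. No member passed when WT or MUT was set against EV (background 0.285% and 0.214%), with 6 and 6 members at an unadjusted p under 0.05, and DESeq2 called none in either. For MUT against WT, 1 member passed (background 1%), 13 had an unadjusted p under 0.05, and DESeq2 called the same number, 1. That member was PCDHB5. After cytarabine it stood at 14.1, 12.5 and 15.3 CPM in EV, 14.5, 11.2 and 13.1 in WT and 11.6, 8.47 and 10.9 in MUT. Treated MUT was still lower than treated EV, by -0.44 ± 0.13 (edgeR adjusted p = 0.0352), a call lost without treated EV replicate 1 or 3 or treated MUT replicate 2 or 3 (up to 0.180), with no filter on low counts, and when just these groups were fitted. PCDHB5 rose with treatment by 0.43 ± 0.14 in EV and 0.81 ± 0.14 in MUT (edgeR adjusted p = 0.0136 and 8.90e-05), but not in WT, where untreated and treated libraries overlapped. The EV call was lost without untreated EV replicate 2 or treated EV replicate 3 (up to 0.0680). The difference in response, MUT against WT, was 0.93 ± 0.20 on the log2 scale (edgeR adjusted p = 0.0283). It was lost when only the 4 groups concerned were fitted (0.0863) and without any untreated WT library, treated WT replicate 2 or 3, or treated MUT replicate 1 or 3 (up to 0.10).

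Most members had a larger fitted response in MUT than in WT, without passing singly. The interaction was above 0 for 39 of 46 members with a median of 0.58, against 0.04 for genes of the members' abundance range. It was above 0 for 49.7% of all tested genes and 54.3% of the genes in that range. In 31 of 46 members the response was largest in MUT, and in 30 it was smallest in WT. Among genes of the members' abundance range these shares were 37.6% and 36.3%. By cluster the median interaction was 0.52 in alpha, 0.42 in beta and 0.87 in gamma. All members were read in the same libraries, and alpha and gamma members share exonic bases, so the 46 are not separate observations. Untreated MUT replicate 3, with the lowest alpha and gamma sums, enters every one of these MUT values. The counts are a description, and no value with a library left out is given for them.

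Genes known to act on these promoters were read from the same fit. They comprise CTCF, the cohesin subunits and loaders, SMCHD1, the SETDB1 and TRIM28 repressor system, REST and the DNA methylation enzymes. With cytarabine, 3 of 28 tested were called higher and 20 lower in EV, while WT had 2 and 17 and MUT 4 and 11. Most of these genes are abundant, with 23 of 28 above a mean log2 CPM of 5. All tested genes in the same abundance bins, weighted as the list is, were lower in 39.3% (EV), 37.2% (WT) and 41.4% (MUT) and higher in 20.7%, 22.2% and 25.2%, so the MUT count of lower genes was near this background. The list's median log2 fold change was -0.36, -0.30 and -0.13. CTCF, which binds protocadherin promoters and enhancers, fell by -0.87, -0.95 and -0.80 in EV, WT and MUT (edgeR adjusted p = 2.86e-07, 9.2e-08 and 5.18e-07). TRIM28, a corepressor, fell by -0.71, -0.72 and -0.91, and TET1, a methylcytosine oxidase, rose by 0.94 in EV and 0.95 in MUT. CTCFL, a paralog of CTCF, averaged 20.3 CPM in untreated EV, 5.30 in WT and 0.512 in MUT. No gene of the list passed an interaction test.

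Protocadherins outside the clusters showed a like direction after cytarabine. Of 8 tested, EV cells had 6 higher and none lower, WT cells 4 higher and 1 lower, and MUT cells 7 higher and none lower, with medians of 0.88, 0.46 and 1.11. Genes of the same abundance bins were higher in 29.2%, 27.5% and 32.8%. PCDH7 rose by 1.09, 1.61 and 1.37 and PCDH1, a neighbour of the locus, by 1.59, 1.45 and 0.93. PCDH18 rose by 1.20 in EV and fell by 1.01 in WT. Among 14 classical and type II cadherins the calls were 7 higher and 1 lower (EV), 9 and 1 (WT) and 9 and 1 (MUT), against 26.2%, 25.5% and 30.2% higher in their bins. CDH2 (N-cadherin) was the member that fell, by -0.60, -0.63 and -0.46, and CDH10 rose by 1.60, 2.26 and 2.32.

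Proteins that cleave protocadherins or relay their signals moved in both directions. Among 26 tested the calls were 7 higher and 13 lower (EV), 7 and 8 (WT) and 7 and 12 (MUT). Genes of the same abundance bins were higher in 21.6%, 23.1% and 26.3% and lower in 37.0%, 35.1% and 39.1%, so most of these counts were near the background. RET, a receptor kinase that binds alpha and gamma protocadherins, rose by 3.02, 2.14 and 2.33, while RAC1 and RHOA, small GTPases, fell by 0.53 to 0.92. Of 33 tested non-member genes inside the locus or within 1 Mb of it, 7 were higher and 7 lower in treated EV, 6 and 7 in WT, and 7 and 10 in MUT, with medians of -0.09, -0.07 and -0.06. Their bins held 24.7%, 25.3% and 29.2% higher and 27.0%, 26.3% and 29.6% lower genes. The neighbours thus had medians just below 0 where the tested members had 0.56, 0.27 and 0.90. These medians are not matched for abundance. Of the neighbours, 15 had a mean log2 CPM above 5, whereas the members reached at most 4.98. Over all tested genes above 5, 44.3% were lower and 17.5% higher in treated EV. In untreated MUT against EV, 9 of the 33 neighbours were higher and none lower, where 9.88% of all tested genes were higher and 10% lower. The neighbours had a median of 0.22, while the members had -0.06. No share matched for abundance is given for this comparison.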

How the data were processed

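Expression was measured by RNA-seq in 18 libraries, 3 for each of 6 groups set by the sample labels (EV, WT and MUT, untreated or cytarabine for 24 h). The deposited files are estimated counts for each gene, which need not be whole, and a second table of normalized signal by the authors, which equals 1 plus a factor per library times the deposited count (largest relative deviation 9.49e-06). That signal was used only for an alternative scaling. Per the submitters' processing notes, CASAVA, STAR 2.6.1d and hg38 were used. The counting tool, strand setting and treatment of reads mapping to several places are not given in the sources used here. All 56 members overlap the gene of the same name in GENCODE release 44. Promoter sequences come from RefSeq (GRCh38.p14). Of all count values, 75.0% were whole within 0.001.

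Estimated counts were rounded and fitted with edgeR 4.0.16 in R 4.3.3 (filterByExpr, TMM factors, 6 group coefficients over all 18 libraries, quasi-likelihood test), with Benjamini-Hochberg adjustment over 18226 tested genes and calls at an adjusted p under 0.05. Standard errors were derived from the fold change and the F statistic. CPM values use unrounded counts and TMM-scaled totals. The fit was tested on simulated data. Named in full were the 4 most abundant tested members of each cluster, members called in an interaction, and the 2 called members with the largest change in each other comparison. PCDHB11 and PCDHB15 were added after their values were seen. From the lists (promoter and chromatin regulators, other protocadherins, cadherins, partners and neighbours) the called genes with the largest changes, at most 3 per list and comparison, were named, and CDH2 and RHOA were added after their values were seen. Members and lists were chosen with earlier results of these data known. Alternatives were RLE factors, the authors' factors, no filter, a mean of at least 50 counts, a minimum log2 change of 1, the replicate block, only the groups compared, DESeq2 1.42.0, sums without the most abundant member, and leaving out each library. No 2 libraries of a group were alike within sampling noise. Their chi-square per degree of freedom was 21.0, 24.9 and 45.5 in untreated MUT, 7.64 to 15.7 in treated EV and 2.42 to 5.35 in the other 4 groups. Depth was 15.4 to 21.9 M counts, so members near 1 CPM rest on few counts.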

Additional observations from a re-analysis of the deposited data

Results flagged for a closer look

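The following differences in cytarabine response between lines met a rule for a closer look. For PCDHB5 the interaction test of MUT against WT passed, at 0.93 on the log2 scale. In the other cases the treated libraries of a line all lay on 1 side of the mean of its untreated group, and those of the compared line all on the opposite side of theirs, with differences on the log2 scale. That opposite movement was not tested as such, and no interaction test of these members passed. The difference in response of PCDHB14 was -0.43 (WT against EV) and 0.27 (MUT against WT). For PCDHGA2 these were -1.45 and 1.73. PCDHB3 gave 1.59 (MUT against EV), PCDHGB6 gave 1.49 (WT against EV) and 1.40 (MUT against EV), PCDHGA1 gave 1.45 for MUT against WT, and PCDHB15 gave -0.70 for WT against EV. PCDHGA2, PCDHB3, PCDHGB6 and PCDHGA1 rest on levels near or below 1 CPM.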

How the results depend on the processing

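No call on a named member and no cytarabine ratio of the summed clusters reversed direction under the alternatives run. Small log2 ratios of the sums between lines did. Without PCDHGC3, untreated gamma in MUT against WT went from -0.05 to 0.02. Without PCDHAC2, treated alpha in MUT against EV went from 0.02 to -0.03. With 1 library left out, the number of called members ran from 11 to 20 for cytarabine in EV (11 without treated EV replicate 3), 6 to 9 in WT and 18 to 27 in MUT. For the lines it ran from 0 to 3 (WT against EV), 3 to 7 (MUT against EV, 3 without untreated EV replicate 1) and 3 to 6 (MUT against WT) before treatment, and from 3 to 6, 2 to 6 and 0 to 8 after it, where MUT against EV gave 2 without treated EV replicate 1 or 3. For interactions it was 0 to 0, 0 to 0 and 0 to 3 (3 without untreated MUT replicate 1).

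With a mean of at least 50 counts, 17 members were tested, and 12, 5 and 13 were called for cytarabine in EV, WT and MUT. That filter gave 3 for untreated MUT against EV and, after treatment, 1 (WT against EV), 3 (MUT against EV) and 2 (MUT against WT). Asking for a log2 change above 1 left 0 in EV, 0 in WT, 2 in MUT, and 0 in the 6 line comparisons and in the MUT against WT interaction. With no filter, treated MUT against WT gave 3. Fitting only the groups compared gave 2 for untreated MUT against EV, 1 for untreated MUT against WT, 10 for treated MUT against WT and 0 for the MUT against WT interaction. The cause of these shifts was not tested. DESeq2 called 18, 8 and 24 members for cytarabine.

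The authors' factors changed the EV log2 ratio of the sums to 0.29 (beta) and 0.26 (gamma). Without PCDHGC3 the gamma ratio was 0.57 in EV, 0.52 in WT and 1.00 in MUT, -0.24 and -0.29 for WT against EV before and after treatment, and 0.50 for treated MUT against WT.

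Replicate numbers did not pair the libraries in general: same-numbered deviations had r from -0.18 to 0.35, above 0.1 in 7 of 45 pairs, and 8 of 18 libraries matched their own number best. The highest values were in replicate 3, at 0.35 for treated EV with untreated MUT and 0.33 for untreated with treated MUT. Treated EV with treated MUT was at 0.31 there. Pairing within EV and MUT was not tested separately. With the replicate block 17, 8 and 24 members were called for cytarabine, 3, 6 and 4 between untreated lines, 4, 5 and 4 between treated lines, and 0, 0 and 1 in the interactions. Of 65 calls on named members, 34 held whichever library was left out and 31 were lost at least once.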

Other observations

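The genes whose log2 CPM followed the most abundant member of each cluster most closely over the 18 libraries were SMARCC2, HIC2 and GALNT17 for PCDHAC2 (Pearson r of 0.91, 0.88 and 0.88), PRKAA2, KRT222 and RARB for PCDHB2 (0.96, 0.95 and 0.95) and ZNF611, RNF213 and MEIS3P1 for PCDHGC3 (0.92, 0.92 and 0.91). All libraries share the treatment contrast, so these values describe 18 points in 6 groups. PCDHB11, singled out after its values were seen, was at 6.62, 4.03 and 3.6 CPM in untreated and 7.69, 6.27 and 8.24 in treated MUT. It rose there by 0.63 on the log2 scale (edgeR adjusted p = 0.0180). That call was lost without untreated MUT replicate 2 or 3 or treated MUT replicate 3 (up to 0.104), and when only the groups compared were fitted.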
